A study of Mus musculus with 12 samples.

Results

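The earliest transcriptional changes of a deletion course were examined in mouse embryonic stem cells, by setting the 3 arrays of day 1 against the 3 arrays of day 0. These 6 arrays were chosen by their titles out of 12 in the series, which also holds 3 arrays each of days 2 and 3. The cells are of the E14 embryonic stem cell line, carry loxP sites in both alleles of Hdac1 and of Hdac2, and express CreER, a Cre recombinase fused to an oestrogen receptor domain that is active only when 4-hydroxytamoxifen (OHT) is bound. They were grown without feeder cells on gelatin, in serum with LIF, and were exposed to OHT for 16 hours to start the deletion. Day 0 and day 1 thus share the line, the floxed alleles and the CreER. The titles carry "+OHT" for day 0 too, although the design text treats day 0 as wild type. It is therefore not stated if cells of day 0 had met OHT, nor whether days were counted from the start or the end of the exposure. Cells with CreER but no loxP sites, or kept for a day without OHT, are not among the samples. The promoter that drives CreER and whether the line is 1 clone are not given in the sources used here. Separate cultures are not claimed for the triplicates in the labels, and the spread behind every p-value may thus be technical.

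HDAC1 and HDAC2 are closely related enzymes that remove acetyl groups from histones, and they work in the SIN3, NuRD, CoREST and MiDAC corepressor complexes. In embryonic stem cells these complexes occupy both active and silent genes, and the REST repressor recruits them to neuronal genes. After Cre removes the floxed exons, messenger RNA and protein made before are still lost only by decay and by dilution at cell division, so a sample taken soon after the recombination can hold cells at different stages of that loss. In bulk samples such as these, fewer cells of a type and less RNA per cell cannot be told apart.

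The values are normalized log2 bead intensities of 1 probe per gene. The 6 arrays had upper quartiles of raw intensity of 274.1 to 357.6 and 14977 to 16096 detected probes, where a probe is detected at a detection p under 0.01. Across genes, arrays of the same day correlated at 0.9873 to 0.9901 (day 0) and 0.9907 to 0.9933 (day 1), against 0.9845 to 0.9927 between the days. The median SD over 3 arrays was 0.179 at day 0 and 0.138 at day 1. The cells carried their labelled identity, with 38 of 39 measured pluripotency genes detected on every day 0 array and 37 on every day 1 array. Of the markers of other cell types, 1 of 16 mesoderm, 5 of 19 neuroectoderm and 6 of 18 fibroblast genes were detected on every array of each day. Trophectoderm markers numbered 11 of 20 at day 0 and 12 at day 1, and endoderm markers 9 of 22 and 10.

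The targeted genes come first. No probe is named Hdac1. For Hdac2 there are 2, of unknown position relative to the floxed exons, so neither checks the deletion. The brighter probe read 13.70, 13.40 and 13.65 at day 0 and 13.57, 13.39 and 13.51 at day 1. These arrays overlap, and the log2 difference was -0.09 ± 0.14 (SE), with a limma adjusted p of 0.894 over all probes. The dimmer probe read 6.57, 6.36 and 6.47 at day 0, and 6.23, 6.26 and 5.31 at day 1. Its day 1 arrays all lay below those of day 0 and it was detected on 2 of them, and its difference of -0.53 ± 0.21 did not pass (limma adjusted p of 0.482 over all probes).

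At day 1, few genes had moved beyond the spread between arrays. Of 9934 genes tested, 10 were called changed at a limma adjusted p under 0.05 (0.101%), of which 8 rose (0.0805%) and 2 fell (0.0201%). Hmox1, which encodes the inducible haem oxygenase, fell furthest, and Taf9b, which encodes a subunit related to TAF9 of the general transcription factor TFIID, rose with the smallest adjusted p of the 8 rises. The others that rose were Dmrtc2, 6330403K07Rik, H2bfm, Snorc, Myl2, Elavl3 and Hmgn3, and Myo10 was the other gene that fell. Same-numbered arrays of days 0 and 1 deviated together, so the replicate number was also fitted as a block. With the block 24 genes were called (0.242%), 20 higher (0.201%) and 4 lower (0.0403%), and all 10 were among them. The block on the 6 arrays of days 0 and 1 alone, added after seeing the data, gave 1 call.

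Below the threshold, differences to the higher side were more frequent. At an unadjusted p under 0.05 there were 994 genes, 661 higher (6.65%) and 333 lower (3.35%). Of these, 66.5% were thus higher. Over all alternatives the share ran from 58.9%, where arrays were scaled to their 75th percentile, to 80.3% of 122 genes without scaling. It was 59.6% when the 6 arrays were fitted alone. For 1713 genes (17.2%) there was no overlap between the day 0 and day 1 arrays, with day 1 above in 1049 (10.6%) and below in 664 (6.68%). Differences were small, with 95% of the genes between -0.40 and 0.49 on the log2 scale around a median of 0.02. Only 4 genes were at least 2-fold higher and 2 at least 2-fold lower. Day 2 against day 1 gave 1076 calls (10.8%). The median SE was 0.158 in both comparisons by design, as each sets 3 arrays against 3 in the same fit. These counts were not compared by a test, and the direct test of the steps, given below, called 1 gene.

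Single arrays moved the count of 10. Without day 0 replicate 2 it was 0, with 1001 genes at an unadjusted limma p under 0.05, and 5 without day 0 replicate 1. Leaving out day 1 replicate 1, 2 or 3 gave 1, 2 and 1 calls. Leaving out day 2 replicate 1, 2 or 3, which enter through the shared spread and the detection filter, gave 3, 2 and 2, and leaving out day 3 replicate 1 or 2 gave 3 and 4. Only without day 0 replicate 3 (14) or day 3 replicate 3 (15) was the count within 1.5 times of 10.

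**Figure D1:**
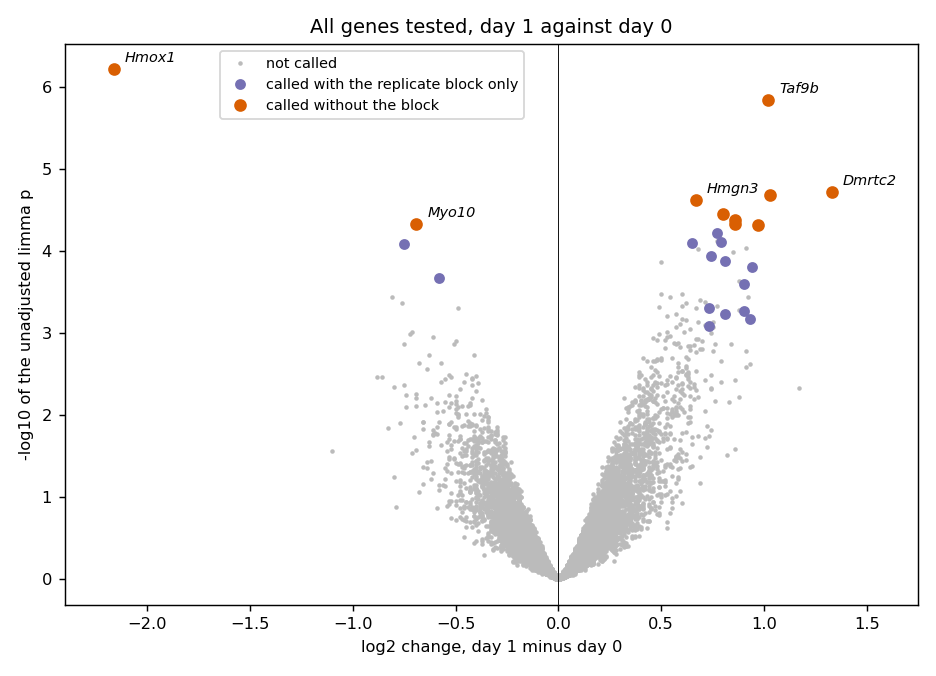
Each of the 9934 genes is a point, with the log2 change from day 0 to day 1 on the x axis and -log10 of its unadjusted limma p on the y axis. Orange points are the 10 genes called without the replicate block and violet points those called only with it. Hmox1 lies at -2.16 and Taf9b at 1.02, the highest points on the lower and the higher side.

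Hmox1 (chromosome 8) encodes the enzyme that opens the haem ring to give biliverdin, carbon monoxide and iron. NRF2 activates the gene, and BACH1 represses it until haem binds BACH1. Its probe read 8.46, 8.68 and 8.13 at day 0 and 6.72, 6.13 and 5.94 at day 1. All day 1 arrays lay below all day 0 arrays, by at least 1.41, and the probe was detected on 3 of 3 arrays at day 0 but on 1 of 3 at day 1. The mean went from 8.42 ± 0.27 to 6.27 ± 0.41 (SD, n = 3), a log2 change of -2.16 ± 0.23 (SE), with 2 of the day 1 values below the detection limit (limma adjusted p of 0.006). This call held in 24 of 25 alternative settings, with adjusted p from 0.000317 to 0.0552. The exception was the fit without day 0 replicate 2 (0.0552).

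Against the same day 0 arrays, Hmox1 was at -2.4 at day 2 (limma adjusted p of 4.5e-05) and -1.89 at day 3 (5.38e-05). Its probe was detected on 2 of 3 arrays at day 2 and on 3 of 3 at day 3. The step from day 1 to day 2 was -0.24 (limma adjusted p of 0.571), but at this level a further fall could not be seen.

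No other gene of the same regulators was called, but calls were rare, at 0.101% of all genes. A list of this size would mostly hold none, so the absence of calls says little here and in the lists below. Of 23 tested targets of NRF2 and BACH1, Hmox1 alone was called, and the median difference was 0.03, beside 0.02 over all genes. Blvrb, whose product reduces biliverdin, was at 0.46 ± 0.14, and Ephx1, an epoxide hydrolase, at 0.37 ± 0.13, with limma adjusted p of 0.281 and 0.347. Bach1 itself was at -0.40 ± 0.21 (0.564). Among 22 genes of haem and iron handling Hmox1 was again alone, with a median of 0.11. The constitutive paralogue Hmox2 was at 0.29 ± 0.16 (0.588). The haem synthesis genes Uros (0.28), Alad (0.24) and Urod (0.23) were not called either.

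Myo10, on chromosome 15, encodes an unconventional myosin of filopodia. It read 8.53, 8.36 and 8.36 at day 0 and 7.75, 7.67 and 7.77 at day 1, with no overlap. It fell by 0.69 ± 0.11 on the log2 scale (limma adjusted p of 0.0473). A second probe read 6.68, 6.80 and 6.58 at day 0, and 6.07, 5.87 and 5.30 at day 1. That probe too had all day 1 arrays below day 0, at -0.94 ± 0.22, without passing on its own (limma adjusted p of 0.233 over all probes). Of 39 tested genes of the actin cytoskeleton, myosins and adhesion, Myo10 alone was called (against 0.101% of all genes). At an unadjusted p under 0.05 there were 0 higher and 3 lower (against 6.65% and 3.35% of all genes), the others being the formin Diaph1 (-0.50 ± 0.16) and the integrin Itgb1 (-0.59 ± 0.19), with limma adjusted p of 0.287 and 0.308.

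Taf9b, on the X chromosome, is a paralogue of Taf9, whose products pair with histone-fold partners in TFIID and the SAGA coactivator. Its probe read 7.71, 7.91 and 8.04 at day 0 and 8.90, 8.81 and 9.0 at day 1. The lowest day 1 array lay 0.77 above the highest day 0 array. The rise was 1.02 ± 0.12, or 2.03-fold (limma adjusted p of 0.0071). Taf9b passed in 19 of 25 alternatives and in 9 of 12 fits without 1 array, failing without day 0 replicate 2 (0.0552), day 1 replicate 1 (0.0646) or day 1 replicate 3 (0.0774), within a range of 0.00164 to 1 over all alternatives. A second Taf9b probe read 6.59, 6.12 and 6.19 at day 0 and 6.46, 6.97 and 6.94 at day 1. Its arrays overlapped, and its difference of 0.49 ± 0.17 was not called (limma adjusted p of 0.389 over all probes).

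Of 17 tested genes of TFIID, SAGA TAF subunits and TFIIA, Taf9b was the 1 called (against 0.101% of all genes), and the median was 0.02. Taf9 read 10.43, 10.60 and 10.79, then 10.42, 10.64 and 10.80, a difference of 0.01 ± 0.22. Taf7l, a germ-cell paralogue of Taf7, was at 0.35 ± 0.15 and Taf7 at -0.28 ± 0.13, neither of them called (limma adjusted p of 0.477 and 0.498).

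Dmrtc2, on chromosome 7, encodes a DM-domain transcription factor needed in male meiosis. Its probe read 5.67, 5.88 and 6.06 at day 0 and 7.19, 7.22 and 7.17 at day 1. It was detected on 0 of 3 arrays at day 0 and on 3 of 3 at day 1, at least 2.09-fold higher (limma adjusted p of 0.0469, measured means of 5.87 and 7.2). A bound of this kind sets the day 1 mean against the lowest detected level of each day 0 array, or the probe's own value where that is higher. H2bfm, an X-linked histone H2B gene, likewise went from 0 to 3 detected arrays. It read 5.47, 5.52 and 6.06 at day 0 and 6.78, 6.47 and 6.70 at day 1, at least 1.43-fold higher (limma adjusted p of 0.0473).

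Germline and meiosis genes had differences on both sides. Of 35 tested, Dmrtc2 was the 1 called, 7 were higher and 4 lower at an unadjusted p under 0.05 (20% and 11.4%, against 6.65% and 3.35% of all genes), and the median was 0.13. Tdrkh, a Tudor-domain protein of the piRNA pathway, was at 0.54 ± 0.11, and Syce3, of the synaptonemal complex, at 0.54 ± 0.13, with limma adjusted p of 0.121 and 0.169. Dazl, a germ-cell RNA-binding protein, was at -0.40 ± 0.11 (0.242). Each of these 3 had arrays of the days that did not overlap. The number higher was 4 without day 1 replicate 3, and the number lower 2 without day 0 replicate 1 or day 1 replicate 2. Without scaling there were 1 and 0. The median was 0.05 without day 1 replicate 3. When members that earlier results of these data had shown were left out, 34 genes remained. Of these, 6 were higher and 4 lower at an unadjusted p under 0.05, with a median of 0.12.

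Hmgn3, on chromosome 9, encodes a nucleosome-binding protein of the HMGN family that loosens chromatin structure. It read 11.41, 11.53 and 11.64 at day 0 and 12.22, 12.17 and 12.20 at day 1, a rise of 0.67 ± 0.10 (limma adjusted p of 0.0469). A second probe moved alike, from 11.18, 11.19 and 11.51 to 12.03, 11.97 and 11.74. Its arrays did not overlap, and its difference was 0.62 ± 0.13, without a call of its own (limma adjusted p of 0.203 over all probes). The rest of the family gave Hmgn1 at -0.12 ± 0.11, Hmgn2 at -0.02 ± 0.11 and Hmgn5 at -0.19 ± 0.18. Of 6 HMG chromatin genes tested, Hmgn3 was the 1 called (against 0.101% of all genes), and Hmgb2 was at -0.26 ± 0.13 (0.548). The list's median was -0.07.

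Elavl3 encodes a neuronal RNA-binding protein (HuC), and Myl2 the regulatory light chain of slow and ventricular muscle myosin. Elavl3 read 7.33, 7.02 and 6.90 at day 0 and 7.82, 7.91 and 7.91 at day 1, a rise of 0.80 ± 0.13 (limma adjusted p of 0.0473). Its arrays did not overlap. Another tested probe of Elavl3, undetected on these 6 arrays, gave 0.49 ± 0.31. Myl2 read 7.41, 7.69 and 7.75 at day 0 and 8.31, 8.40 and 8.71 at day 1, a rise of 0.86 ± 0.14 (limma adjusted p of 0.0473). Again every day 1 array lay above every day 0 array.

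Snorc encodes a small proteoglycan of cartilage. It read 7.09, 7.15 and 7.15 at day 0 and 7.96, 8.02 and 7.98 at day 1, which is the tightest pair of groups among the 10 genes. Its rise was 0.86 ± 0.14 (limma adjusted p of 0.0473). The RIKEN clone gene 6330403K07Rik read 6.80, 6.32 and 6.42 at day 0 and 7.56, 7.68 and 7.38 at day 1, a rise of 1.03 ± 0.16 (0.0469).

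These 8 calls with adjusted p near the threshold depended on the fit. Over 25 alternatives each, Dmrtc2 passed in 12, 6330403K07Rik and Hmgn3 in 10, Snorc in 9, Elavl3, H2bfm and Myl2 in 8 and Myo10 in 7. No alternative turned the direction of any of the 10. Without day 0 replicate 2, day 1 replicate 1, day 1 replicate 2, day 1 replicate 3, day 2 replicate 2 or day 2 replicate 3, all 8 lost their call, at adjusted p between 0.0506 and 0.254. Of the 8, the calls kept were 6330403K07Rik and Elavl3 without day 0 replicate 1, Dmrtc2, H2bfm and Hmgn3 without day 0 replicate 3, Dmrtc2 without day 2 replicate 1, 6330403K07Rik without day 3 replicate 1, Dmrtc2 and Snorc without day 3 replicate 2, and all 8 without day 3 replicate 3. With detected probes as separate features, 14940 in all, Hmox1 (limma adjusted p of 0.00907) and Taf9b (0.0158) were the 2 probes called.

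**Figure D2:**
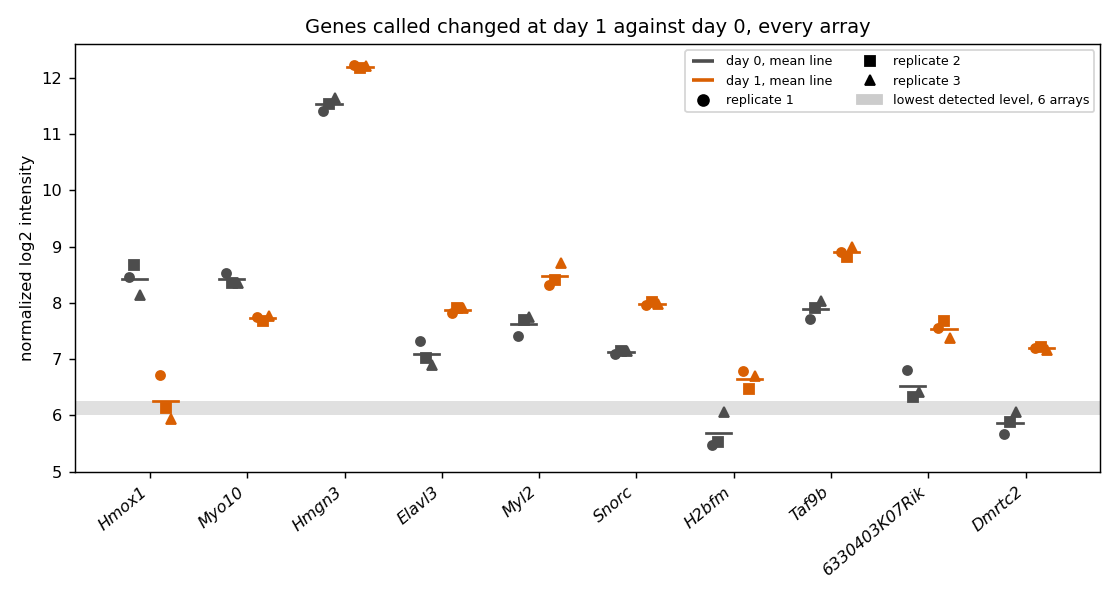
The y axis gives the normalized log2 intensity of the 10 genes called without the block, at day 0 (grey) and day 1 (orange), with 1 symbol per array, a different shape per replicate and a line at each mean. The grey band is the range of the lowest detected level over the 6 arrays, 6.01 to 6.25. In every gene the groups do not overlap, Hmox1 drops to the band, and Dmrtc2 and H2bfm rise above it.

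With the replicate number as a block, 14 further genes passed. Of these, 2 were lower. Cnot6l, a catalytic deadenylase subunit of the CCR4-NOT complex, read 7.27, 7.19 and 7.39 at day 0, and 6.29, 6.52 and 6.79 at day 1. It was at -0.75 ± 0.13, with a limma adjusted p of 0.0308 with the block and 0.0542 without. Its other detected probe did not share this, at 0.25 ± 0.23. Chp1, a calcium-binding regulator of sodium-proton exchangers, went from 6.89, 6.92 and 7.10 to 6.35, 6.35 and 6.48, at -0.58 ± 0.11 (0.0403 with the block, 0.0902 without).

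Among the 12 that were higher with the block were 3 genes of neurons. Cplx1, a complexin that binds the SNARE complex at synapses, read 7.32, 7.48 and 7.22 at day 0 and 8.08, 8.14 and 8.11 at day 1. Its limma adjusted p was 0.0308 with the block and 0.0542 without, at 0.77 ± 0.13. Pacsin1, an endocytic adaptor of neurons, was at 0.81 ± 0.15 (0.0308 with, 0.0641 without), and Ttc9b, a tetratricopeptide repeat protein, at 0.94 ± 0.18 (0.0454 with, 0.0705 without). Pacsin1 has 3 other tested probes, at 0.56, 0.02 and 0.52, the last of them undetected on these 6 arrays.

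The others of this group include a pair of genes known from testis. Tesmin, a testis protein with cysteine-rich repeats, was at 0.74 ± 0.13 (limma adjusted p of 0.0439 with the block, 0.06 without), and Wbp2nl, a sperm-head protein, at 0.93 ± 0.21 (0.0439 and 0.141). Wbp2nl was undetected at day 0 and at least 1.32-fold higher. H2-DMa, which loads peptides on class II MHC molecules, was at 0.73 ± 0.17 (0.0336 and 0.152), and Lamb3, the beta chain of laminin-332 in epithelia, at 0.73 ± 0.16 (0.0308 and 0.123). A second H2-DMa probe, detected on all arrays of both days, was at 0.46 ± 0.20, and its arrays overlapped.

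The remaining 5 were AA467197 at 0.65, Mslnl at 0.79, Lypd2 at 0.81, Cracr2b at 0.90 and Wfdc10 at 0.90. Their limma adjusted p with the block were 0.0454, 0.0308, 0.0403, 0.0115 and 0.0308, against 0.0542, 0.0542, 0.132, 0.127 and 0.0991 without. Lypd2 was undetected at day 0 and at least 1.07-fold higher. Another tested probe of Cracr2b was at 0.32 ± 0.23 with overlapping arrays, and one of Wfdc10 at 1.22 ± 0.26 without overlap. The 24 genes have 11 other tested probes, of which 10 had the same sign and 4 had arrays apart the same way. Over all alternatives the 14 passed in 1 (Cracr2b, H2-DMa, Lamb3, Lypd2 and Wbp2nl) to 7 (Cplx1) settings, and their adjusted p ranged up to 1.

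The courses after day 1 differed between these genes. All later comparisons with day 0 use the same 3 day 0 arrays, so the values are set side by side only. Ttc9b was at 0.94, 1.95 and 3.56 above day 0 at days 1, 2 and 3, and Cplx1 at 0.77, 1.41 and 2.23. Hmgn3 was at 0.67, 1.26 and 1.95, and Myo10 at -0.69, -1.13 and -1.50. These 4 were therefore farther from day 0 with each day. Taf9b was at 1.02, 1.53 and 1.27, Elavl3 at 0.80, 1.57 and 1.56, and Snorc at 0.86, 1.87 and 1.08. Dmrtc2 was at 1.33, 1.62 and 1.07, with a step from day 1 to day 2 of 0.29 that was not called (limma adjusted p of 0.387). Cracr2b was at 0.90, 0.93 and 0.82 and Mslnl at 0.79, 0.57 and 0.53, so that their means stayed near the day 1 level. Tesmin was at 0.74, 1.01 and 0.17.

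**Figure D3:**
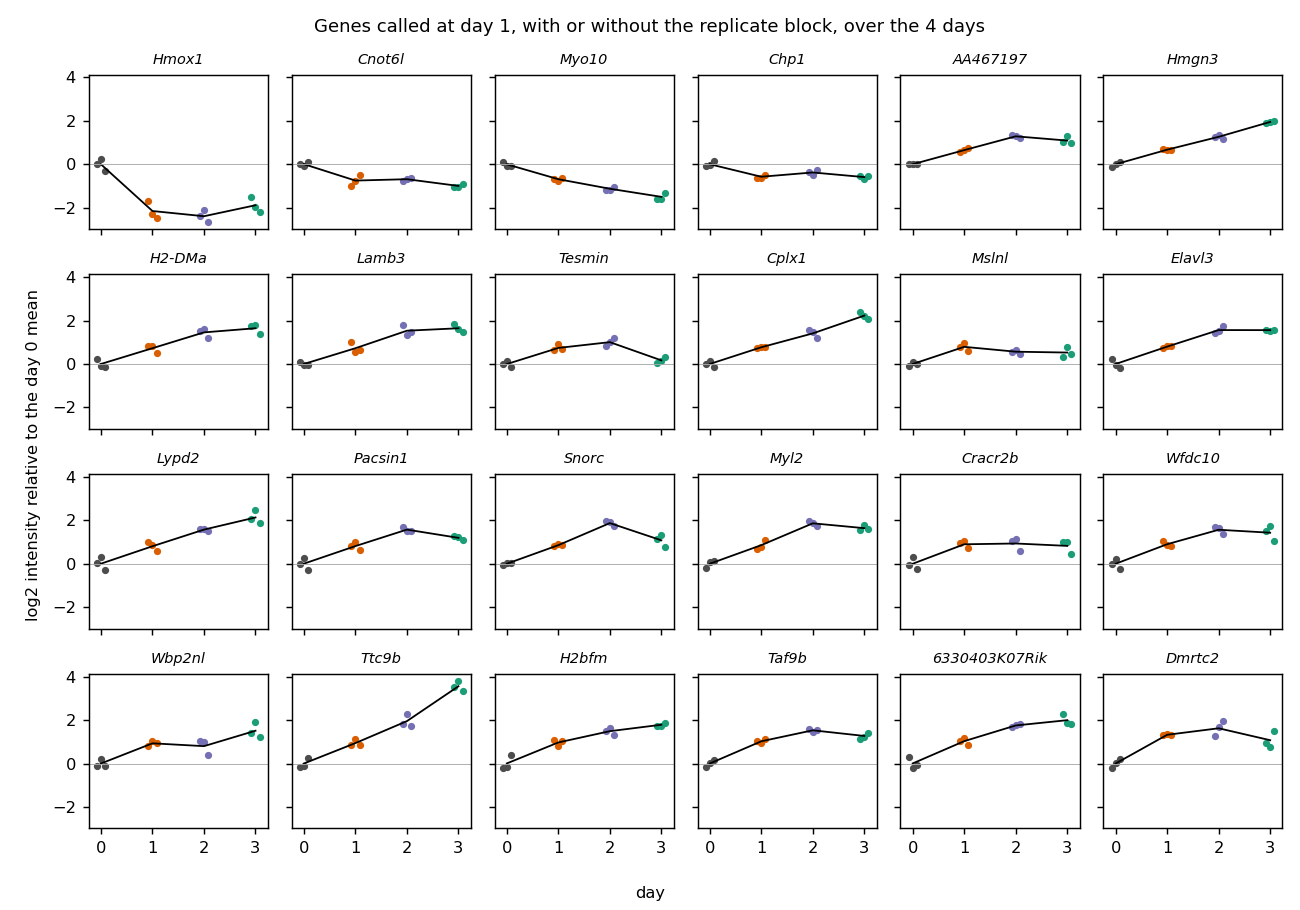
Each panel is 1 of the 24 genes called at day 1 with or without the block, ordered by the day 1 mean, with the day on the x axis and the log2 intensity relative to the day 0 mean on the y axis. Points are arrays, 3 per day, and the line joins the means. Hmox1 lies near the detection limit from day 1, Ttc9b continues to 3.56 at day 3, and Tesmin is back near 0.

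Promoter letters of these 24 genes were read from RefSeq windows on GRCm38.p6, taking the 250 bases before each annotated start. Windows were found for 18 of the genes, 26 windows in all. A gene was counted as holding a motif if any of its windows held it. Taf9b, Tesmin and AA467197 are shown because they are the 3 of 18 (16.7%) that hold the E-box CACGTG, which MYC and USF proteins can bind, where 6.86% of 27025 genes hold it. Dmrtc2 and Elavl3 are shown as called genes with neither the E-box nor the E2F-type letters GCGGGA. Each line runs 5′ to 3′ on the gene's strand, and capitals mark CACGTG and GCGGGA, or the reverse complement of the latter. The windows lie at chrX:106221159-106221408 (minus strand) for Taf9b, chr19:3389128-3389377 (plus) for Tesmin, chr2:122637637-122637886 (plus) for AA467197, chr7:24869807-24870056 (plus) for Dmrtc2 and chr9:22052024-22052273 (minus) for Elavl3.
Taf9b: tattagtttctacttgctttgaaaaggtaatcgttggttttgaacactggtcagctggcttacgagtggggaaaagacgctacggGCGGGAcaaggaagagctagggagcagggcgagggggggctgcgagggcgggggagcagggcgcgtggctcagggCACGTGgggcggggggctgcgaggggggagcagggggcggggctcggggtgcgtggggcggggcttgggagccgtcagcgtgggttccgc
Tesmin: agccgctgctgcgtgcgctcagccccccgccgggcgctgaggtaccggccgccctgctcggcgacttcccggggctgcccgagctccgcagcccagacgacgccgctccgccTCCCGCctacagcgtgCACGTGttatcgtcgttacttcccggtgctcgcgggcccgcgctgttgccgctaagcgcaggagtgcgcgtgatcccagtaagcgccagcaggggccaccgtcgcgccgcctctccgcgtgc
AA467197: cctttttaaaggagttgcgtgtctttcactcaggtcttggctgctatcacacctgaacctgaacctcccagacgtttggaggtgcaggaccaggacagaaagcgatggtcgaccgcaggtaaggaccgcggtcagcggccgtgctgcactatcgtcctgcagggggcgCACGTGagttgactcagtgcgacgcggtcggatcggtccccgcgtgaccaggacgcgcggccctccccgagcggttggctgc
Dmrtc2: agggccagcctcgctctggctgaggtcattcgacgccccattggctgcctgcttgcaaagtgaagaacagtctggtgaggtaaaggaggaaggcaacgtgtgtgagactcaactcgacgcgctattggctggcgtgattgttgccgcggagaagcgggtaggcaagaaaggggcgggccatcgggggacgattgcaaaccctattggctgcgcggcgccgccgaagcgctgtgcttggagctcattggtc
Elavl3: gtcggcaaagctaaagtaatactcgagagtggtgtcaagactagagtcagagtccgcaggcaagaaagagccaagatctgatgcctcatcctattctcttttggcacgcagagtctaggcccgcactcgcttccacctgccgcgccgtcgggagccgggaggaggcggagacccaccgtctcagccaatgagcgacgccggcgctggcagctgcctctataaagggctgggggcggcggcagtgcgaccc
The windows shown for Taf9b and Tesmin hold both motifs. Each of these genes has another window, before another annotated start, that holds neither. The E2F-type letters occurred in 5 of 18 genes (27.8%, against 18.8% of all genes), which were Chp1, Cnot6l, H2-DMa, Taf9b and Tesmin. The GC box GGGCGG, which can share bases with GCGGGA, was in 10 of 18 (55.6% against 35.4%), and the median GC content of the windows was 62.2% against 52.4% for all. The cyclic AMP response element TGACGTCA (1.77% of all genes), the RE1 core of REST (0.0518%) and the antioxidant response element TGACNNNGC (11.5%) were in 0 of the 18, on either strand. Hmox1 is not among the 18. A match describes these letters and shows no binding.

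Neuronal genes were the list with the highest median. Of 32 tested genes that REST represses or that are otherwise neuronal, 1 was called (Elavl3), or 3 with the block (Elavl3, Cplx1 and Ttc9b). At an unadjusted p under 0.05, 14 were higher (43.8%, against 6.65% of all genes) and 0 lower, and the median was 0.30. Several members were put on the list because earlier results of these data had shown them. Without those, 25 genes remained, of which 8 were higher, 0 lower and 9 had day 1 arrays all above day 0 (against 10.6% of all genes), with a median of 0.24. The median member, taken relative to its mean over the 6 arrays, was at -0.20, -0.21 and -0.07 on the day 0 arrays and at 0.11, 0.21 and 0.14 on the day 1 arrays. Besides the genes named above, the JNK scaffold Mapk8ip2 was at 0.84 ± 0.20 (limma adjusted p of 0.171), and the paralogue Elavl2 at 0.08 ± 0.13. Over 25 alternatives, 5 to 16 members were higher at an unadjusted p under 0.05, 0 were lower, and the median ranged from 0.13 to 0.32.

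Sarcomere genes leaned the same way. Of 18 tested, 1 was called (Myl2), 5 were higher and 0 lower at an unadjusted p under 0.05 (27.8% and 0%, against 6.65% and 3.35% of all genes). A difference above 0 was seen in 17, with a median of 0.21, beside 0.02 over all genes. Actn2, the Z-disc actinin, read 8.33, 8.43 and 8.43 at day 0 and 8.87, 8.93 and 8.84 at day 1. These arrays did not overlap, at 0.48 ± 0.12, but the gene was not called (limma adjusted p of 0.169). Tnni2 was at 0.49 ± 0.19, undetected on all 6 arrays, and Myl4 at 0.37 ± 0.15. The other myosin light chains were Myl7 at 0.45, Myl12b at 0.20, Myl6 at 0.14, Myl12a at 0.10, Myl9 at 0.01 and Myl6b at -0.35, with none called. Without day 0 replicate 1, 2 of the 18 were higher at that p, and 2 without day 1 replicate 2. With the block the number was 8, and without scaling it was 1. Without members that earlier results of these data had shown, 16 genes remained. Of these, 4 were higher and 0 lower at that p, 3 had day 1 arrays all above day 0 (against 10.6% of all genes), and the median was 0.21.

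Of 61 histone genes tested, 1 was called (H2bfm), 18 were higher and 0 lower at an unadjusted p under 0.05 (29.5% and 0%, against 6.65% and 3.35% of all genes), and the median was 0.26. The number higher was 1 without scaling and 26 with the block. Leaving out what earlier results of these data had shown, 60 genes remained, with 17 higher, 0 lower and a median of 0.26. The split by class was chosen after the values were seen, and no difference between classes was tested. The H2A class includes the H2A variants, and the H3 class includes CENP-A. The median was 0.39 over 12 H2B genes, 0.34 over 13 H4 genes and 0.30 over 12 H3 genes, but 0.04 over 20 H2A genes. Of these, 7, 6, 4 and 0 were higher at that p. The linker H1 genes, 4 in all, had a median of 0.17. H2A genes had means of 5.8 to 16.05 at day 0, the top one near the highest value of any gene on any array (16.09). The median day 0 level was 12.09 for H2A, 12.61 for H3, 10.38 for H2B and 8.66 for H4. Examples are H2bc14 at 0.46 ± 0.13, H4c4 at 0.50 ± 0.14 and H4c9 at 0.53 ± 0.16, with limma adjusted p of 0.242, 0.248 and 0.266. These genes have near-identical copies, and a probe may read several of them.

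Day 0 replicate 1 lay apart in these genes. The median H2B gene was at -0.57 on day 0 replicate 1 but at -0.04 and -0.04 on the other day 0 arrays, and at 0.16, 0.19 and 0.30 at day 1. For H4 these values were -0.47, -0.06 and 0.05, then 0.17, 0.16 and 0.21. Without day 0 replicate 1, 6 of 61 histone genes were higher at an unadjusted p under 0.05, and the median was 0.14. Leaving out day 1 replicate 2 or 3 in its place gave 10 and 11. Of the neuronal genes, 9 of 32 were higher when day 0 replicate 1 was left out, with a median of 0.27.

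**Figure D4:**
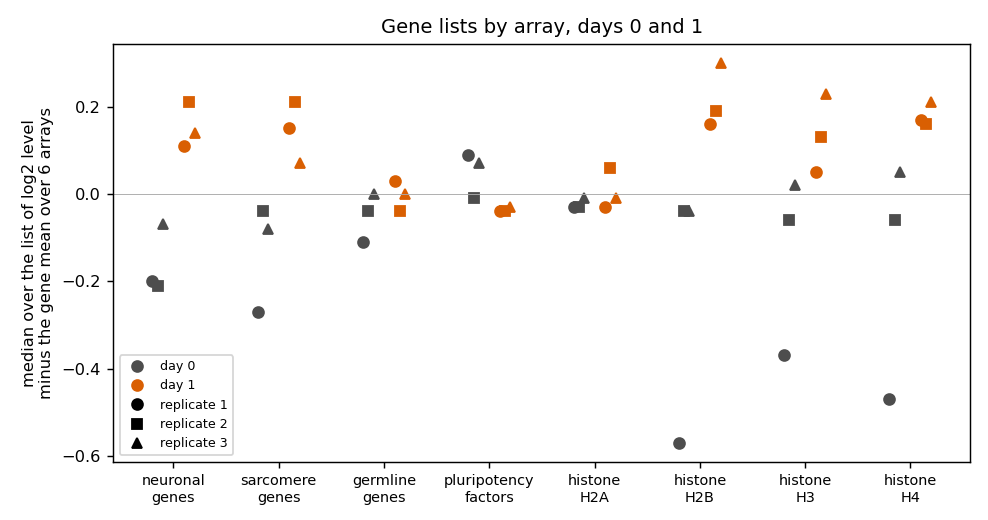
The y axis gives, for 1 list per column and 1 symbol per array, the median over the list of each gene's log2 level minus its mean over the 6 arrays, in grey for day 0 and orange for day 1. Neuronal genes separate the days on all arrays, from -0.07 at most at day 0 to 0.11 at least at day 1. In histones H2B, H3 and H4 the array of day 0 replicate 1 lies far below the others. The H2A class, variants included, shows no such distance.

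Of 38 pluripotency factors tested, 0 were called with limma, with or without the block. Over all genes 0.101% were called, and 0.242% with the block, so a list of this size would mostly hold no call. At an unadjusted p under 0.05, 1 factor was higher and 4 were lower (2.63% and 10.5%, against 6.65% and 3.35% of all genes). For 9 factors the day 1 arrays were all below day 0 (against 6.68% of all genes). The median was -0.05. Sox2, a core factor of the state, read 10.25, 9.99 and 9.86 at day 0 and 9.27, 9.62 and 9.38 at day 1. Its arrays did not overlap, at -0.61 ± 0.14 (limma adjusted p of 0.169). Tet1, which oxidises methylcytosine, was at -0.40 ± 0.14, Prdm14, a regulator of the naive state, at -0.40 ± 0.15 and Lefty1, an inhibitor of Nodal, at 0.48 ± 0.13. None of them passed, with limma adjusted p of 0.356, 0.392 and 0.242. The number lower was 2 without day 1 replicate 1 and 6 without day 2 replicate 1, within a range of 1 to 8 over 25 alternatives.

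Markers of other lineages gave 0 calls with limma in any list (against 0.101% of all genes). Their counts stand against 6.65% higher and 3.35% lower of all genes at an unadjusted p under 0.05. Trophectoderm markers (13 tested) had a median of 0.17, with 3 higher and 1 lower at an unadjusted p under 0.05. Plac1 was at 0.64 ± 0.16, Krt7 at 0.46 ± 0.18 and Krt18 at 0.37 ± 0.11, and the 1 lower was the receptor Fgfr2 at -0.31 ± 0.11. Endoderm markers (11) had a median of 0.15, with Amn at 0.62 ± 0.16 and Cited1 at 0.36 ± 0.16 higher at that p. Neuroectoderm markers (5) had a median of -0.24, and 2 were lower, Gbx2 (-0.30) and Meis2 (-0.52). Primed epiblast markers (9) had a median of -0.11 and 1 lower, Lef1, the Wnt-responsive transcription factor, at -0.76 ± 0.16. Mesoderm markers (3, median -0.06) had 0 on either side, and fibroblast markers (6, median 0.21) 1 higher, Col5a1 at 0.32 ± 0.13.

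Genes that could answer to OHT itself were also listed, since OHT binds oestrogen receptors. Of 14 tested oestrogen receptor targets 0 were called (against 0.101% of all genes), and the median was 0.09. At an unadjusted p under 0.05, 2 were higher and 1 lower (14.3% and 7.14%, against 6.65% and 3.35% of all genes). Greb1, a well-known target, was at 0.76 ± 0.18, with means of 5.23 and 5.99, detected on 0 of 3 arrays at day 0 and 1 of 3 at day 1. Its limma adjusted p was 0.171. Cxcl12 was at -0.52 ± 0.14, Krt19 at 0.45 ± 0.17 and Gata3 at 0.41 ± 0.25. Genes of cholesterol and fatty acid synthesis (24) had a median of 0.01 with 1 on either side (4.17% each), Ebp at 0.32 ± 0.12 and Idi1 at -0.42 ± 0.19. An effect of OHT itself and an effect of the deletion cannot be told apart in this design.

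Stress and damage lists held 0 calls (against 0.101% of all genes). Cre can cut DNA, and p53 targets answer to breaks. Of 29 tested, 3 were higher and 2 lower at an unadjusted p under 0.05 (against 6.65% and 3.35% of all genes, as for the lists that follow), with a median of -0.06. Fas, a death receptor, was at 0.62 ± 0.16 (limma adjusted p of 0.229), and Cdkn1a, the p21 gene, at 0.12 ± 0.11 (0.765). Targets of ATF4 in the integrated stress response (27) had a median of -0.07, with 1 higher and 3 lower, and 8 with day 1 arrays all below day 0 (against 6.68% of all genes). They include the tRNA synthetase gene Cars at -0.75 ± 0.22, Sesn2 at -0.40 ± 0.15 and the serine synthesis gene Psat1 at -0.32 ± 0.14. Heat shock proteins (14, median -0.04) had 1 lower, the mitochondrial chaperone Hspd1 at -0.36 ± 0.15. Immediate-early genes (18, median 0.04) had Egr1 at 0.32 ± 0.12 and Dusp6 at -0.28 ± 0.12 on opposite sides.

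Cell cycle lists gave 0 calls with limma as well (against 0.101% of all genes). Of 41 replication and S phase genes and 33 genes of mitosis, 0 differed at an unadjusted p under 0.05, with medians of -0.04 and -0.09. Of the 33 mitosis genes 26 had a difference below 0, where the median over all genes was 0.02. Among 10 D-type cyclins and CDK inhibitors (median 0.11), Ccnd2, cyclin D2, was at -0.64 ± 0.17 and Cdkn3 at 0.42 ± 0.12. Neither was called, with limma adjusted p of 0.239 and 0.242.

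The enzymes themselves and their partners gave 0 calls (against 0.101% of all genes). Of 8 tested zinc-dependent deacetylases, Hdac5 was at 0.24 ± 0.11, the 1 with an unadjusted p under 0.05, and the median was -0.13. Hdac3, a class I enzyme of other corepressors, was at 0.14 ± 0.10, and Hdac8 at -0.27 ± 0.25. Of 26 subunits of HDAC1/2 complexes 0 differed at that p, and the median was 0.06. Among 15 genes that HDAC inhibitors are reported to raise, the median was 0.12, with 1 higher at that p, Crip2 at 0.35 ± 0.12, a LIM protein. Genes of the 2-cell stage (6) had a median of 0.16 with 0 at that p, and Tdpoz1 was at 0.50 ± 0.24. Interferon and antigen presentation genes (23, median 0.08) had 3 higher and 1 lower, led by the immunoproteasome subunit Psmb9 at 0.62 ± 0.13 (limma adjusted p of 0.123).

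**Figure D5:**
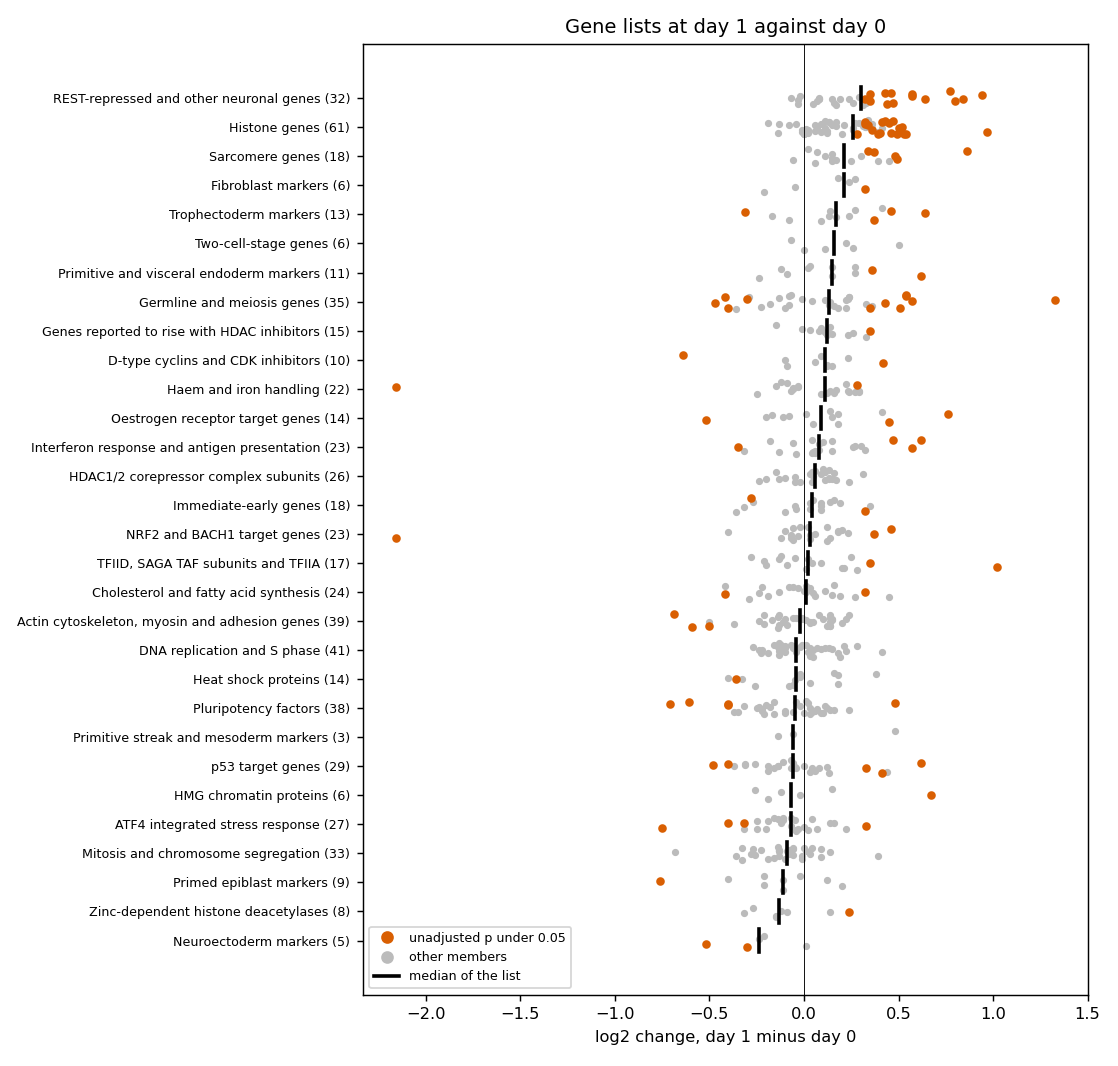
Each row is 1 of 30 gene lists, ordered by median, with the number of genes tested in brackets, and the x axis gives the log2 change from day 0 to day 1. Each point is a gene, orange where the unadjusted limma p is under 0.05, and the black bar is the median of the list. Neuronal, histone and sarcomere genes sit at the top with medians of 0.30, 0.26 and 0.21, and their orange points are all above 0.

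The largest differences with no overlap between days included genes that were not called. From 202 genes on the higher side and 62 on the lower side with an unadjusted p under 0.01, a higher day detected on all 3 arrays and no overlap, the 10 largest of each side were taken, leaving out clone names such as 6330403K07Rik. On the higher side, the uncalled ones were Mlycd, malonyl-CoA decarboxylase, at 1.17 ± 0.34, Sohlh1, a germ-cell transcription factor, at 0.92 ± 0.19, and C2cd2l and the sterol sulphotransferase Sult2b1, both at 0.91. The dipeptidase Dpep2 was undetected on all day 0 arrays and at least 1.09-fold higher, from measured means of 5.35 and 6.26. Mlycd read 5.76, 5.40 and 6.64 at day 0 and 7.13, 6.85 and 7.33 at day 1, so that day 0 replicate 3 lay nearest to the day 1 arrays. Sult2b1 came closest to the threshold (limma adjusted p of 0.0545).

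On the lower side, they were Twistnb, a subunit of RNA polymerase I, at -0.86 ± 0.24, Tmem168 at -0.80 ± 0.23, Lef1 at -0.76, Rbm3, a cold-inducible RNA-binding protein, at -0.75 ± 0.18, Cars at -0.75, Ankrd13c at -0.74 ± 0.22, Son, of the nuclear speckles, at -0.72 ± 0.17 and Bcor, a Polycomb-associated corepressor, at -0.71 ± 0.17. Their limma adjusted p lay between 0.123 (Lef1) and 0.276 (Ankrd13c). Twistnb read 6.84, 6.55 and 6.55 at day 0 and 5.64, 5.84 and 5.90 at day 1, undetected on all day 1 arrays and at least 1.43-fold lower. It was at -0.22 and -0.18 from day 0 at days 2 and 3, whereas Lef1 was at -1.0 and -1.23, undetected on all day 3 arrays.

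Detection calls gave a second readout. Of 45281 probes, 29 (0.064%) were detected on all 3 arrays at day 1 and on 0 of 3 at day 0, and 19 (0.042%) the other way. No test was made of these counts. Those that came on include Dmrtc2, H2bfm, Wbp2nl, Dpep2 and a further probe of Sohlh1. Those that went off include Twistnb. Of the 29, 25 were detected on all 3 arrays at day 2 and 19 at day 3. Of the 19, 7 were back on all 3 arrays at day 2 and 5 were on none. With 2 arrays left at 1 of the days, the counts are 45 to 117 and 35 to 99.

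Whether the first day's step differed from the next one was tested in the same fit, as the step from day 1 to day 2 minus the step from day 0 to day 1. With limma 1 gene was called (0.0101%) and 951 had an unadjusted p under 0.05 (9.57%). It was 1700102P08Rik, which was at 0.50 ± 0.09 at day 1, not called, and at -0.77 from day 1 to day 2 (limma adjusted p of 0.000592), a step difference of -1.28 ± 0.16 (limma adjusted p of 0.0322). No gene was called, on the side of this one or the other, when any 1 array other than day 3 replicate 3 was left out, and 2 were called without that one. The next 9 genes were not called, with limma adjusted p of 0.0517 to 0.105, and were picked for this difference. The somatostatin receptor gene Sstr2, Mxra7, the phosphatase gene Dusp26 and the exchange factor gene Ngef were undetected on all 6 arrays of days 0 and 1, so their first step was not measured. At day 2, Sstr2, Mxra7 and Ngef were detected on 3 of 3 arrays and Dusp26 on 2. The trophoblast factor Tfap2c had steps of -0.17 and 0.99. In the other direction, Taf15 had steps of 0.25 and -1.21, Ubap1l of 0.12 and -1.68, and the Nodal-related ligand Gdf3 of 0.05 and -1.11, all of them detected on every array of days 0 to 2. Edem1, of endoplasmic reticulum degradation, had steps of 0.64 and -0.70, and was detected on 1, 3 and 1 arrays at days 0, 1 and 2.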

How the data were processed

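Total RNA of 12 samples was labelled as biotinylated cRNA and hybridised to Illumina mouse bead arrays. In the deposited non-normalized table, 45281 probes have an intensity per array, on a linear scale and, judged from the values, without background subtraction or scaling. The deposited detection p-value moves in steps of 1 in 936, the number of negative controls, and so counts how many of them outshine a probe. GenomeStudio was used, per the submitters' processing notes, with no version or settings given. A second table deposited by the authors holds an intensity that shares 1 distribution over all arrays, and was used as an alternative only. Unused per-sample columns numbered 0.

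Intensities were background corrected from the detection p-values, quantile normalized with an offset of 16 and put on the log2 scale by the neqc function (limma 3.58.1, R 4.3.3). A probe was kept if 3 or more of the 12 arrays detected it, at p under 0.01. The platform annotation named 1 gene for 34885 probes, several for 18 and none for 10378. RefSeq (GRCm38.p6, for names, chromosomes and promoter windows only) matched 34807 by gene ID and updated 0 symbols. The detected probe with the highest mean stood for its gene, which left 9934 genes from 14940 probes.

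The limma fit took all 12 arrays together, with the day as the factor, two-sided, with Benjamini-Hochberg adjustment over all genes tested and calls at an adjusted p under 0.05. Errors of differences are standard errors, and the number of arrays limits the precision. Where a probe was undetected on every array of the lower day, the fold is a lower bound. Within days 0 and 1 the deviations from the day means correlated at 0.195, 0.263 and 0.44 for same-numbered arrays, and 6 of 6 arrays correlated best with their own number. Replicate numbers come from the titles. The block is therefore given beside each call it changed.

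The comparison, its gene lists and the choice of genes to name were made with earlier results of these data known. Named are the probes of the targeted genes, every gene called with or without the block, the 10 largest differences per side described in the text (clone names left out), up to 4 members of each of 30 lists by smallest p with paralogues of called genes, and the 5 smallest p of the step difference per direction. Pattern matching for histone symbols was extended to current names after the table had been read. Lists have no test of their own. The fit was tested on simulated data with known changes. Alternatives were other background corrections, scalings, filters, probe rules, priors and weights, the block, and leaving out each array.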

Additional observations from a re-analysis of the deposited data

Results flagged for a closer look

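The RIKEN gene 1700102P08Rik was called in the main fit by the test of the difference between the first and the next step of the course. It read 6.45, 6.42 and 6.46 at day 0 and 7.01, 6.93 and 6.91 at day 1, with no overlap. Its means were 6.17 at day 2 and 5.45 at day 3, where the probe was undetected on every array. The step from day 1 to day 2 minus the step from day 0 to day 1 was -1.28 ± 0.16 on the log2 scale (limma adjusted p of 0.0322). Its day 1 difference alone, 0.50 ± 0.09, was not called (limma adjusted p of 0.0641). The step call depended on the fit. No gene had one when any 1 array other than day 3 replicate 3 was left out. The same held with cyclic loess, with scaling to the 75th percentile and without scaling.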

How the results depend on the processing

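The count of 10 genes changed at day 1 (8 higher, 2 lower) depended on the fit. It was 2 (1 higher) with the 6 arrays of days 0 and 1 alone, 17 (15 higher) with cyclic loess, 1 (0 higher, 1 lower) without scaling, 3 (2 higher, 1 lower) without background correction and with the deposited processed values, 2 (1 higher, 1 lower) without the detection filter, 21 (18 higher, 3 lower) with detection on all 3 arrays of day 0 or day 1, 21 (19 higher) with the mean of all detected probes, 13 higher and 1 lower with an intensity trend and robust prior, and 34 (30 higher, 4 lower) with array weights. Leaving out 1 array gave 0 to 15 calls, 0 to 13 higher and 0 to 2 lower. The replicate block, which pairs arrays by number, gave 24 calls (20 higher, 4 lower), and changed no call of a named gene other than those given beside the values. The block on the 6 arrays alone, an alternative added after seeing the data, gave 1 call (0 higher, 1 lower).

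The 1 gene with a step difference became 0 with cyclic loess, scaling to the 75th percentile or no scaling, 5 without background correction and with the deposited values, 2 with detection on all 3 arrays of a day, 3 with the mean of probes, 4 with a trend and robust prior, 51 with array weights, and 0 to 2 without 1 array. With the replicate block it was 2. For this comparison the numbers do not pair the samples, since day 2 replicate 2 correlated at -0.032 and -0.018 with its namesakes. The same day 2 arrays enter the block fit of day 1 against day 0. Probes detected at day 1 only numbered 45 to 117, and at day 0 only 35 to 99, when 1 array of these days was left out. For single genes and lists, 4423 alternative values were on the same side of the threshold or within the spread, 135 lost a call, 55 gained one and 99 moved by more. The cause of these changes was not tested. Signal over background limits the low genes. Of the 24 called with the block, 23 lay below the median level of all genes, at a median percentile of 26.9. Of the same 24, 4 were undetected on all day 0 arrays.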
